A study of Ovis aries with 2 samples.

Results

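The cells described here are rare blood cells of weaned lambs, picked from sheep peripheral blood mononuclear cells by raw molecule counts of 4 genes. A cell was a member when it held at least 2 unique molecular identifiers (UMIs, each one counted RNA molecule) of FLT3, or at least 3 of C1R, MXRA8 and CDH2 together. A member also held at most 1 UMI of CD3D, CD3E and CD3G together and at most 2 of MS4A1, CD79B and PAX5 together, which left out T and B cells. There were 98 members among 17540 kept cells, 57 in the FLT3 set and 62 in the C1R/MXRA8/CDH2 set, with 21 cells in both. Because the values of these 4 genes chose the cells, those values are descriptions, and no test was made on them.

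The study compared 1 library of blood cells from untreated lambs with 1 library from lambs given A.G.-ES embedding at the ST36 acupuncture point on both sides. The series' title names a suture that elutes astragaloside IV and glycyrrhizic acid. The number, age and sex of the animals behind either library are not stated in the labels. Both libraries came from fresh cells of the HISTOPAQUE gradient interface that had not been cultured, from which debris and dead cells were taken away where needed, and both were made with the SeekOne DD 3′ kit. With 1 library per group, no difference between the groups could be tested, and the intervals below are exact 95% intervals that cover counting error only.

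FLT3 is the receptor tyrosine kinase for FLT3 ligand, the cytokine on which dendritic cells depend, and it is carried by blood-forming progenitors and by dendritic cells. Conventional dendritic cells (cDC) take up and present antigen and fall into a cDC1 class that rests on IRF8 and BATF3 and a cDC2 class that rests largely on IRF4, whereas plasmacytoid dendritic cells (pDC) rest on the transcription factor TCF4 and are known for making type I interferon after sensing nucleic acids through TLR7 and TLR9. C1R is a serine protease of the first component of complement, CDH2 (N-cadherin) is a cell adhesion molecule, and MXRA8 is a membrane protein first described in matrix remodelling and known as an entry receptor for arthritogenic alphaviruses.

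The untreated library held 8088 kept cells (median 5305 UMIs) and the A.G.-ES library 9452 (median 4201.5). Mitochondrially encoded RNA made up 1.38% of the untreated and 2.21% of the A.G.-ES UMIs. The libraries shared 61 cell barcodes, carried by 0 untreated members and 1 A.G.-ES member. Y-linked genes gave 44625 UMIs in untreated and 846 in A.G.-ES cells, and a Y-linked UMI was found in 8 of 9 untreated members and 12 of 89 A.G.-ES members. The makeup of the animals and the treatment therefore cannot be told apart.

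Both sets made up a higher share of A.G.-ES than of untreated cells, and the A.G.-ES members also held far more C1R and MXRA8. The FLT3 set was 6 of 8088 cells of the untreated library, 0.0742% (0.0272 to 0.161%), and 51 of 9452 of the A.G.-ES library, 0.540% (0.402 to 0.709%). The C1R/MXRA8/CDH2 set was 5 cells and 0.0618% (0.0201 to 0.144%) against 57 cells and 0.603% (0.457 to 0.781%). The intervals of both sets did not overlap between the libraries. The genes of the rule differed as well, FLT3 giving 35 and C1R 36 UMIs in all kept untreated cells, against 256 and 2019 in A.G.-ES cells. The shares therefore cannot tell the number of such cells from the level of the rule genes in them. Monocytes, gated by CD14, CSF1R, CD163 and VCAN, were 2.18% and 2.81% of cells, and natural killer (NK) cells, gated by NCR1, were 0.420% and 0.561%, which lay closer together. The large populations differed as well, B-gated cells being 42.1% and 15.9% and T-gated cells 41.7% and 61.8% of the libraries. Their intervals did not overlap either.

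**Figure D1:**
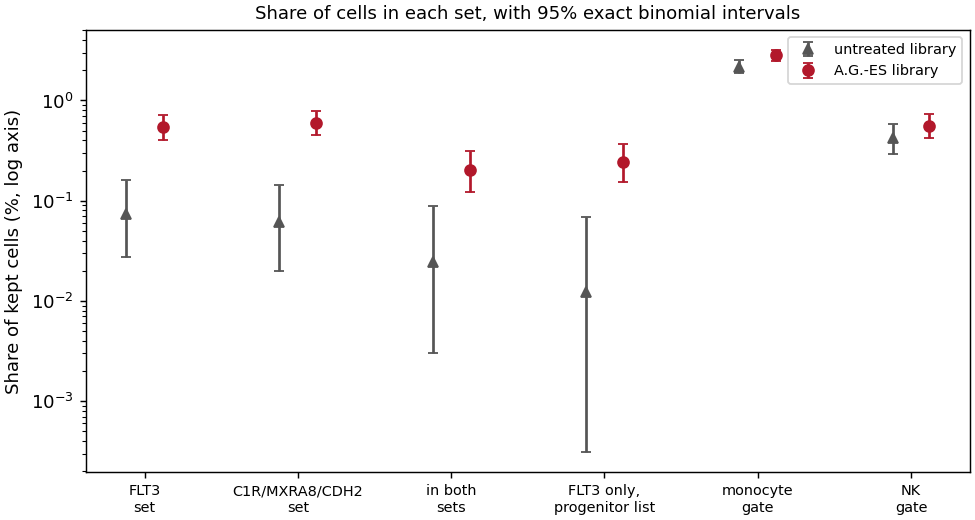
Share of kept cells (percent, log axis) in the FLT3 set, the C1R/MXRA8/CDH2 set, their subsets and the monocyte and NK gates, for the untreated and the A.G.-ES library, with exact 95% binomial intervals that cover counting error only. The FLT3 set was 0.0742% and 0.540% and the C1R/MXRA8/CDH2 set 0.0618% and 0.603% of kept cells, while the gated monocytes were 2.18% and 2.81%.

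Cells at the edge of the rule were common for FLT3 and rare for the other genes. Exactly 2 UMIs of FLT3 were found in 6 untreated and 22 A.G.-ES members, and exactly 1 in 14 and 52 cells that passed the T and B exclusion, of which 3 and 10 were members through the other genes. Exactly 3 UMIs of C1R, MXRA8 and CDH2 were found in 2 untreated and 0 A.G.-ES members, and exactly 2 in 2 and 9 cells, of which 0 and 5 were members through FLT3. The A.G.-ES cells of this set held a median of 43 UMIs of these genes (range 4 to 110), and 35 of 57 held all 3 genes, 19 held 2 and 3 held 1. In the untreated set the median was 4 (range 3 to 36), no cell held MXRA8, and the highest sum came from 1 cell with 36 UMIs of CDH2.

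A few cells met the count rule and were left out for CD3 alone. They were 2 untreated and 7 A.G.-ES cells by C1R, MXRA8 and CDH2, and 1 and 2 cells by FLT3, and all of them held 2 to 12 UMIs of CD3E. One of the cells left out of the untreated library held 11 UMIs of C1R, 13 of MXRA8 and 57 of TCF4. None of the 9 untreated members held MXRA8. Without the T and B exclusion the set held 7 and 64 cells.

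The C1R/MXRA8/CDH2 cells of the A.G.-ES library held most of the RNA of their 3 rule genes in that library. C1R gave 2019 UMIs in all kept cells, 87.8% of them in these 57 cells. MXRA8 gave 385 UMIs with 87.3% in the set, and CDH2 gave 363 with 88.7% in the set. In the untreated library C1R gave 36 UMIs, of which 11.1% lay in the 5 cells of the set, and MXRA8 gave 31, of which 0% did. CDH2 gave 61 there, with 77.0% in the set. The T gate of the A.G.-ES library held 214 UMIs of C1R in 32 cells, and the cells left out for CD3 are part of it.

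Per cell, C1R ranged from 1 to 73 UMIs around a median of 30 in the 57 A.G.-ES cells, and stood at 1, 0, 0, 0 and 3 in the 5 untreated cells. CDH2 ranged from 0 to 21 around a median of 4 in the A.G.-ES cells and stood at 2, 4, 36, 3 and 2 in the untreated ones. MXRA8 ranged from 0 to 37 around a median of 3 against 0 in each untreated cell. The libraries thus overlapped for CDH2, while 52 of the 57 A.G.-ES cells held more C1R than any untreated cell of the set. Median depth was 11143 UMIs (906 to 22030) in the A.G.-ES cells and 13526 in the untreated cells. Whether depth had a part in these differences was not tested.

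Identity was read from marker lists, each cell being scored by the UMIs it held of a list after thinning to 1500 UMIs, with at least 2 UMIs counted as carrying it. All 56 A.G.-ES cells of the C1R/MXRA8/CDH2 set deep enough to thin carried the pDC list (100%, 93.6 to 100%). In the same library 57.7% of B-gated, 32.9% of T-gated and 20.2% of monocyte-gated cells carried it, so this list alone does not separate single cells. The cDC1 list was carried by 38 of 56 cells (67.9%, 54 to 79.7%), the cDC2 list by 2 of 56 (3.57%, 0.435 to 12.3%) and the monocyte list by 0 of 56 (up to 6.38%). In gated monocytes those shares were 43.9% for cDC1, 57.3% for cDC2 and 99.6% for the monocyte list. Median depths before thinning were 11143 UMIs in the set, 5696 in B-gated, 4217 in T-gated and 6446.5 in monocyte-gated cells. Summed over the pDC list, the set stood at 6983 counts per 1000000 UMIs (CPM), against 1409 in B-gated, 833 in T-gated and 577 in monocyte-gated cells.

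TCF4, BLNK and PLD4 of the pDC list stood above every gate. Of 29 pDC genes measured, 12 passed the minimum of 30 UMIs (the set's own plus the other cells' scaled to the set's depth). Of these, 10 were at least 2-fold higher than in all other kept cells of the A.G.-ES library, 0 were at least 2-fold lower and 7 of the 29 stood at 0 UMIs. Over the 4975 genes that passed the same minimum, 14% reached 2-fold on the higher side and 15.1% on the lower side. The median log2 ratio was 2.31 over the 12 genes and −0.05 over all, with 10 CPM added to both sides. A gene that is high in the set passes the minimum more easily, so these counts describe the set and support nothing further.

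TCF4, the factor on which pDC identity rests, was found in all 57 cells, with 1 to 88 UMIs and a median of 24. Its level was 2357 CPM (2239 to 2480), 16.3-fold (15.4 to 17.3) that of the other cells. After thinning, TCF4 was seen in 94.6% of the set, 43.9% of B-gated, 14.9% of monocyte-gated and 1.91% of T-gated cells. In the 5 untreated cells it stood at 6, 1, 7, 7 and 13 UMIs, all inside the A.G.-ES range and below its median. Summed, these gave 496 CPM, under the 568 CPM of that library's B gate.

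BLNK, an adaptor of B-cell receptor signalling that pDC also carry, was found in 53 of 57 A.G.-ES cells with a median of 15 UMIs. Its level was 30.3-fold (27.9 to 33.0) that of the other cells, and thinned cells held BLNK in 78.6% of the set against 18.7% of B-gated cells. PLD4, an endolysosomal nuclease that breaks down single-stranded nucleic acids, reached 595 CPM in 53 cells, 37.6-fold higher (33.0 to 42.6), and was held by 46.4% of thinned set cells and 6.77% of B-gated ones. CCDC50, an adaptor acting in NF-kB signalling, was 12.1-fold higher (11 to 13.2), in 54 cells. BLNK, PLD4 and CCDC50 were thus each above the B-gated cells. The 5 untreated cells held 1, 0, 1, 3 and 2 UMIs of BLNK and 8, 4, 1, 2 and 6 of PLD4, and no UMI of CCDC50.

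The endosomal receptors themselves were thinly covered. TLR9, the receptor for CpG DNA, gave 32 UMIs in 21 of 57 cells and was 24.2-fold higher (15.6 to 36.5) than in the other cells. TLR7, the receptor for single-stranded RNA, gave 14 UMIs in 13 cells and did not pass the minimum. IRF7, the factor that drives interferon genes downstream of both, gave 42 UMIs in 23 cells and was 7.48-fold higher (5.30 to 10.3). SLC15A4, a lysosomal transporter needed for that signalling, was 6.78-fold higher (5.40 to 8.43), though gated monocytes held it at 149 CPM against 142 in the set.

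Other pDC genes were shared with lymphocytes. SPIB, a transcription factor of pDC and B cells, stood at 149 CPM in 39 cells of the set and at 167 CPM in B-gated cells. RUNX2 stood at 507 CPM in 54 cells, 2.55-fold the other cells (2.28 to 2.86), and at 272 CPM in T-gated cells. PACSIN1, a membrane-shaping protein known from neurons and pDC, stood at 139 CPM in 37 cells, at 57.2 CPM in B-gated cells and at 0 in gated monocytes. UGCG, the glucosylceramide synthase, stood at 502 CPM against 362 in B-gated and 224 in T-gated cells and was 1.97-fold the other cells. CD4 gave 97 UMIs in 34 cells, 154 CPM against 126 CPM in the T gate.

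Several genes by which human or mouse pDC are recognised were at or near 0. EPHB1, LAMP5, LRRC26, PTPRS, SERPINF1, TCL1A and TSPAN13 gave no UMI in the 57 cells. LAMP5, LRRC26 and TCL1A gave none in any kept cell of either library. Over all kept A.G.-ES cells SERPINF1 gave 1 UMI and EPHB1 13, while PTPRS gave 711 and TSPAN13 1442. PTCRA, SCT, CUX2 and MAP1A gave 1 UMI each, NRP1 gave 2 and SCAMP5 gave 4. Over all kept A.G.-ES cells PTCRA gave 3 UMIs, CUX2 6 and SCT 9. Low counts of genes this scarce across the library cannot tell the set from other cells. IL3RA (CD123), the interleukin-3 receptor chain, gave 18 UMIs in 11 cells, GPM6B 17 in 8 and ZFAT 18 in 12. The genes CLEC4C, LILRA4 and GZMB were not analysed here. None of the 25 genes that led the set over all other cells of both libraries was on the pDC list. That comparison holds the many untreated B cells, and in the A.G.-ES library alone BLNK, at a log2 ratio of 4.63 with 10 CPM added, and PLD4, at 4.55, lay beside CLEC3B, one of the 25, at 4.54. With several pDC genes at or near 0 here, some of them across the whole library, the cells are called by the genes of their rule.

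The cDC lists were matched only in part. IRF8, which cDC1 and pDC share, was found in 56 cells with 0 to 26 UMIs and a median of 8, and was 54.5-fold higher (48.8 to 60.7) than in the other cells. CADM1, an adhesion molecule of cDC1, was 12.1-fold higher (10.7 to 13.8), in 51 cells, and TLR3, the receptor for double-stranded RNA, 87.0-fold higher (63.6 to 119), in 47 cells. The defining cDC1 genes CLEC9A and BATF3 gave 0 UMIs, as did ANPEP, CLNK and RAB7B, and XCR1 gave 1. In all kept A.G.-ES cells CLEC9A gave only 1 UMI and ANPEP 3, so their 0 here cannot decide, while BATF3 gave 1075. ID2, the factor that opposes TCF4 activity in cDC development, was lower than in the other cells, at 20.6 CPM against 87.9 CPM. WDFY4 stood at 133 CPM against 672 CPM in B-gated cells. Of 13 cDC1 genes, 6 passed the minimum, with 3 at least 2-fold higher and 1 lower.

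Of the cDC2 genes, FCER1A, ADAM8 and CLEC7A gave 0 UMIs, IRF4 gave 4, KLF4 gave 3 and SIRPA gave 20 in 17 cells. FCER1A gave only 5 UMIs in all kept cells of the library. NOTCH2 stood at 128 CPM against 724 CPM in gated monocytes. Of 10 cDC2 genes, 2 passed the minimum and 0 were 2-fold higher or lower. Among genes that all cDC share, CD74, the invariant chain of class II presentation, stood at 9261 CPM in all 57 cells, against 5328 CPM in the B gate. CD86, a costimulatory ligand, stood at 532 CPM in 55 cells and BCL11A at 524 CPM in 53 cells. CST3, abundant in cDC, stood at 560 CPM with at most 17 UMIs in a cell, while ZBTB46, the factor most particular to cDC, gave 3 UMIs in 1 cell. ITGAX and CPVL gave 0.

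PPP1R14A, from the list of transitional dendritic cells, gave 22 UMIs in 19 of 57 cells of the set and 0 in the B gate. The other transitional genes did not accompany it in these A.G.-ES cells, AXL, CD22 and CX3CR1 being at 0 and DAB2 at 2 UMIs. In the 5 untreated cells of the set PPP1R14A gave 15 UMIs, in all 5, and AXL gave 2 UMIs in 2 cells. CD22, CX3CR1 and DAB2 gave 0 there.

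Lists of other blood and tissue cells mostly lay low in the A.G.-ES set. Of 16 monocyte genes, 4 passed the minimum, all at least 2-fold lower, and 11 gave no UMI, CD14 and CSF1R among them. Of 15 T-cell genes, 13 passed, with 10 lower and CD8B alone higher, although CD3 was held down by the rule. Of 9 NK genes, 6 passed, with 5 lower and TYROBP alone higher. Of 12 B-cell genes, 6 passed, with 3 lower and FCRLA alone higher, at 23.5-fold, again beside a limit the rule set. Of 16 fibroblast genes 15 stood at 0, C1S among them, the protease that C1R cleaves. The 6 epithelial and 5 erythroid genes, 6 of 7 neural or muscle genes, 7 of 8 platelet genes and 8 of 10 basophil or mast genes stood at 0. Of 9 endothelial genes, KDR and PECAM1 were higher and 6 gave no UMI, CDH5 and VWF among them. Of 7 neutrophil genes 1 passed and was lower, and of 10 cycling genes 2 passed, 1 of them lower. Of 12 stem or progenitor genes, 7 stood at 0 and 1 passed, SOX4, which was 2.59-fold higher (1.89 to 3.46). MYB, also on that list, gave 26 UMIs in 18 cells.

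CD8B, a chain of the CD8 coreceptor of T cells, was carried without its partner. It gave 640 UMIs in 54 of 57 cells, with 0 to 30 UMIs and a median of 12, while CD8A gave 6 UMIs in 4 cells. CD8B without CD8A was found in 50 cells. In the T gate of the same library CD8B gave 1674 UMIs and CD8A 1167. CD8B stood at 1013 CPM (936 to 1090) in the set and 62.6 CPM in the T gate, and after thinning was seen in 66.1% of the set, 8.01% of T-gated, 1.91% of monocyte-gated and 0% of B-gated cells. The untreated cells held 1, 0, 2, 0 and 8 UMIs of CD8B, with CD8A absent beside it in 2 of the 3 that had it.

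The genes farthest above the other cells, with the libraries pooled and 10 CPM added, were C1R at a log2 ratio of 7.64, OGFRL1 at 6.22, CSF2RB at 6.20, NKAIN2 at 5.74, CDH2 at 5.67, MXRA8 at 5.52, NPC2 at 5.41, TIE1 at 5.21 and CDKN1C at 5.17. CSF2RB is the shared signalling chain of the receptors for GM-CSF, interleukin-3 and interleukin-5. It gave 805 UMIs in 55 A.G.-ES cells with a median of 14, and was 175-fold higher (154 to 200) than in the other cells. After thinning, CSF2RB was seen in 73.2% of the set and 9.16% of gated monocytes. NPC2, a lysosomal cholesterol carrier, stood at 1423 CPM in 53 cells, and CTSS, the protease that trims the invariant chain, at 3763 CPM in all 57, which was 35.6-fold higher (33.9 to 37.4).

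KDR is on the endothelial list, of which 6 of 9 genes gave no UMI (CDH5, CLDN5, EGFL7, EMCN, ROBO4 and VWF), and TIE1 is not on it. TIE1, an angiopoietin coreceptor, stood at 429 CPM in 51 cells, 405-fold higher (295 to 566), and KDR, a VEGF receptor, at 104 CPM in 29 cells, 302-fold higher (171 to 570). C7, a late complement component, stood at 193 CPM in 36 cells. Of 21 complement genes, 4 passed the minimum, with 2 lower, 14 at 0 and C1R, which chose the cells, as the one called higher. Of 10 genes of cadherins and catenins, 2 passed, CDH2, which chose the cells, and 1 other that was not called.

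**Figure D2:**
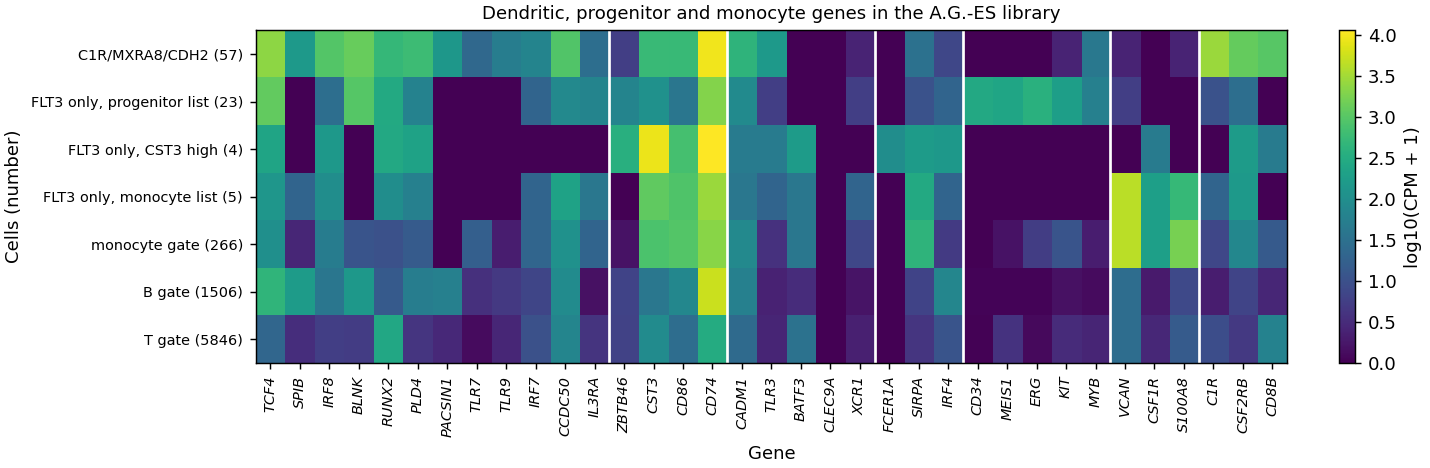
Heat map of log10(CPM + 1) for dendritic, progenitor and monocyte genes and for C1R, CSF2RB and CD8B in 7 populations of the A.G.-ES library, with UMIs pooled over the cells of each population. The C1R/MXRA8/CDH2 set held TCF4 at 2357, CD8B at 1013 and CSF2RB at 1274 CPM, and the FLT3 cells with progenitor genes held CD34 at 280 CPM, which was 0 in the C1R/MXRA8/CDH2 set.

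For the following lists, the share over all 4975 genes was 14% higher and 15.1% lower, as above, and these counts too are descriptions. Of 20 genes for sensing nucleic acids, 11 passed the minimum, with 8 higher and 1 lower (IFIH1). UNC93B1, the chaperone that carries endosomal Toll-like receptors, was 18.8-fold higher (16.4 to 21.5) and STING1, the adaptor of cytosolic DNA sensing, 11.4-fold higher (8.52 to 14.9). Of 18 secretory pathway genes, 17 passed, with 14 higher and 0 lower. Among them SEC11C, a signal peptidase subunit, was 16.5-fold and MZB1, an endoplasmic reticulum chaperone partner of plasma cells, 28.9-fold higher. Of 9 plasma cell genes, 7 passed, with 5 higher and PRDM1, the plasma cell regulator, lower. JCHAIN, the chain that joins secreted antibodies and is also carried by pDC, stood at 261 CPM in 29 cells. SDC1 and TNFRSF17 gave 0.

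Of 25 genes of the interferon response, 14 passed, with IRF7 higher and 6 lower, and the median log2 ratio was −0.72. Of 28 dendritic transcription factors, 23 passed, with 9 higher and 4 lower. They included MYCL, a MYC relative of dendritic cells, at 376-fold (229 to 650), RUNX1 at 4.27-fold and ZEB2 at 4.03-fold, whereas SPI1 (PU.1) stood at 0.797-fold (0.463 to 1.28). Of 18 antigen processing genes, 14 passed, with 4 higher and 2 lower, and of 16 homing genes 10 passed, with 4 higher and 3 lower. CCR9, a gut-homing chemokine receptor that pDC carry, was 3.77-fold (2.60 to 5.30) and S1PR1 0.0320-fold the level of the other cells. CCR9 was not particular to the set, at 55.4 CPM there against 190 CPM in the FLT3 cells with progenitor genes. Of 16 genes of FLT3 and cytokine signalling, 11 passed, with 4 higher and 3 lower. Of 13 lectin and uptake receptors 1 passed and was higher, CLEC12A at 37.3-fold, and 11 gave no UMI. Of 11 mature dendritic genes 3 passed, with LAMP3 higher at 11.7-fold and 1 lower.

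The A.G.-ES cells of this set were not uniform. A count of at least 10 UMIs of C1R, set after the values were seen, split them into 47 cells from 11 UMIs upward and 10 cells up to 9 UMIs. CD8B had a median of 13 UMIs (2 to 30) in the 47 and 1.5 (0 to 9) in the 10. IRF8 had medians of 12 and 1.5, CSF2RB of 15 and 4, and MXRA8 of 4 (0 to 37) and 0 (0 to 1). NKAIN2 did not follow them, with medians of 6 and 7.5, and TCF4 had medians of 24 and 14. Depth moved with the split, at medians of 12298 and 5405 UMIs, and its part in the differences was not tested.

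Scaled to each cell's total UMIs, C1R ran with IRF8 (Spearman's rho 0.51) and CD8B (0.49) and against TCF4 (−0.43) and NKAIN2 (−0.36) across 56 cells of 1 library. TCF4 and NKAIN2 ran together (0.64). C1R had a rho of 0.25 with MXRA8, 0.18 with CSF2RB and −0.20 with CDH2. The cells share a library and the scaled values share each cell's depth, so these are descriptions.

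**Figure D3:**
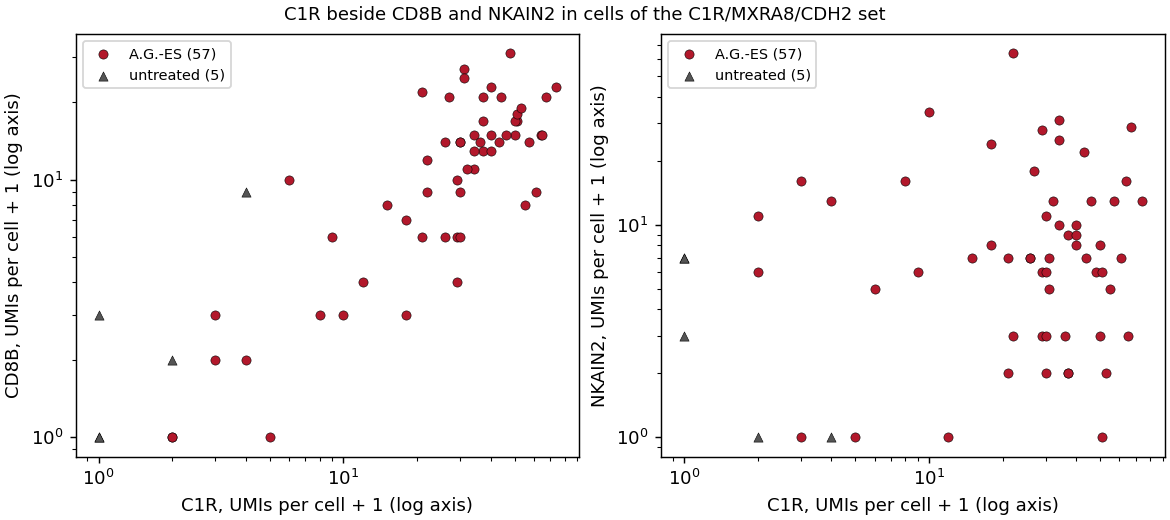
UMIs + 1 per cell (log axes) of C1R against CD8B and of C1R against NKAIN2 for each cell of the C1R/MXRA8/CDH2 set, by library. In the 47 A.G.-ES cells with at least 10 UMIs of C1R the median of CD8B was 13 against 1.5 in the other 10, and that of NKAIN2 was 6 against 7.5.

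The 5 untreated cells of the set did not look alike, and 3 of them held at least 30 UMIs of CST3, which no A.G.-ES cell of the set did. Those 3 had 94, 58 and 39 UMIs of CST3, and the third had the 36 UMIs of CDH2 with 14 of IRF8 and 7 of KDR. The fourth held 15 UMIs of CST3, 9 of KDR and 7 of TCF4. The fifth held 13 UMIs of TCF4, 8 of CD8B, 6 of CSF2RB and 3 of C1R, the closest to the A.G.-ES cells. After thinning, 5 of 5 carried the pDC list, 0 of 5 the cDC1 list and 3 of 5 the cDC2 list, and the summed pDC list stood at 1808 CPM beside 1792 CPM in B-gated cells of the same library. Before thinning the 5 cells held 35, 5, 24, 5 and 5 UMIs of the cDC1 list, so they did not lack its genes. All 5 were among the 523 untreated cells that a doublet score removed at the rate set for this many cells, and 0 were when the score set its own threshold. The same steps took 11 and 1 of the 57 A.G.-ES cells.

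The FLT3 set was a mixture. Of its 51 A.G.-ES cells, 19 were also in the C1R/MXRA8/CDH2 set, 23 held genes of stem or progenitor cells, 5 held monocyte genes and 4 held at least 30 UMIs of CST3. Of its 6 untreated cells, 2 were in both sets, 1 held progenitor genes, 2 held monocyte genes and 1 cell of 1146 UMIs held too little to place. These classes were cut from list sums after the values were seen. A sum of at least 10 on the monocyte list separated cells of 45 and above from cells of 5 and below. A sum of at least 3 on the progenitor list left 3 A.G.-ES cells near the cut, at 3 or 4, with the next at 7.

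The 19 cells of both sets resembled the rest of the C1R/MXRA8/CDH2 set, with 2 to 5 UMIs of FLT3, 20 to 73 of C1R, 13 to 88 of TCF4 and 3 to 26 of CD8B. Their medians were 36 for C1R, 31 for TCF4 and 14 for CD8B. They were deeper than the cells that met only the C1R, MXRA8 and CDH2 count, at medians of 14312 and 10680.5 UMIs, and FLT3 was found in 29 of the 57 cells at 1 UMI or more. FLT3 stood at 98.1 CPM across the set and at 502 CPM in the FLT3 cells with progenitor genes, which were chosen for it.

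**Figure D4:**
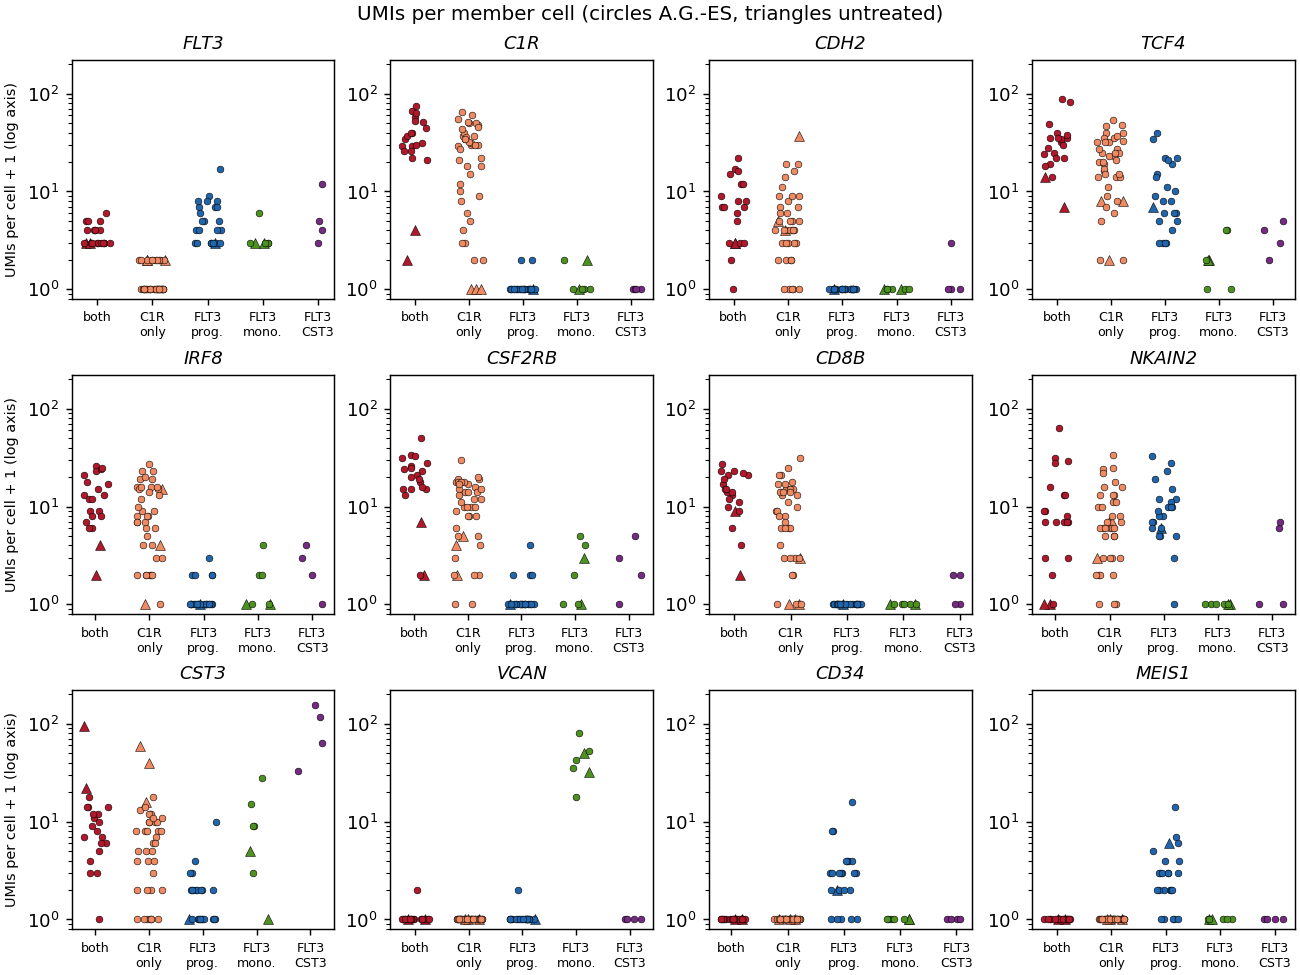
UMIs + 1 per cell (log axis) of 12 genes in each class of member cells, with circles for A.G.-ES and triangles for untreated cells. C1R (median 30) and CD8B (median 12) were high in the A.G.-ES cells of the C1R/MXRA8/CDH2 set, and CD34 (median 2) and MEIS1 were held by the FLT3 cells with progenitor genes. The untreated cell of 1146 UMIs is not drawn.

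The largest class of FLT3 cells outside the C1R/MXRA8/CDH2 set held genes of blood-forming progenitors. It was 23 A.G.-ES cells, 0.243% of kept cells (0.154 to 0.365%), and 1 untreated cell, 0.0124% (0.000313 to 0.0689%). FLT3 itself ranged from 2 to 16 UMIs around a median of 4 in the 23 cells, which held 106 of the library's 256 UMIs of FLT3. Their median depth was 8605 UMIs (4228 to 13885).

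CD34, the surface marker of blood-forming progenitors, was found in 18 of the 23 cells with 0 to 15 UMIs and a median of 2. Those 59 UMIs were 85.5% of all UMIs of CD34 in the library, while the T and B gates held 1 each and gated monocytes 0. ERG, a transcription factor of stem cells and endothelium, gave 78 UMIs in 19 cells, or 75.0% of the library's. MEIS1, the partner of HOX proteins in stem cells, gave 52 UMIs in 18 cells. CD34, ERG and MEIS1 are on the list that cut the class, so their levels restate that choice.

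At least 3 of CD34, KIT, MEIS1 and ERG were found together in 18 cells, but of these only KIT did not cut the class. Among genes outside that list, KIT, the stem cell factor receptor of progenitors and mast cells, gave 40 UMIs in 15 cells. KIT was 59.2-fold (40.6 to 84.7) the level of the other cells. HOXA9, a homeobox factor of early blood formation, was found in 21 cells at 559 CPM, 783-fold (523 to 1204) the level of the other cells. DNTT, the terminal transferase of early lymphocyte precursors, was found in 14 cells at 232 CPM, 916-fold (470 to 1954). The C1R/MXRA8/CDH2 set held DNTT too, with 35 UMIs at 55.4 CPM, 219-fold (109 to 477) the level of the other cells. ESR1, the estrogen receptor, was in all 23 with 1 to 41 UMIs and a median of 18, at 1834 CPM, 176-fold (153 to 202). DGKB stood at 559 CPM in 18 cells and NPTX1 at 403 CPM in 17. ATP8B4 was found in all 23 at 1981 CPM and KLRK1 (NKG2D), an activating receptor of cytotoxic cells, in all 23 at 1227 CPM, 16.6-fold (14.6 to 18.9). TH, which makes the precursor of dopamine, stood at 218 CPM in 13 cells.

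Of the 12 stem or progenitor genes that cut the class, CRHBP, GATA1 and GFI1B gave 0. Over the 2305 genes that passed in these cells, 14% reached 2-fold on the higher side and 11.2% on the lower. Of 29 pDC genes, 5 passed, with 2 higher and 14 at 0. Of 12 shared cDC genes, 4 passed, with 1 higher and 1 lower, of 13 cDC1 genes 2 passed with 1 lower, and of 10 cDC2 genes 1 passed and was lower. Of 16 monocyte genes, 1 passed and was lower and 12 gave no UMI. CD74 stood at 2009 CPM, 1.14-fold the other cells (1.04 to 1.26), and CST3 at 114 CPM, 0.945-fold (0.605 to 1.41).

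Both groups of cells held TCF4, BLNK and NKAIN2. In the progenitor class TCF4 was in all 23 cells with 2 to 39 UMIs and a median of 7, at 1204 CPM, 8.33-fold (7.32 to 9.44) the other cells. BLNK was in 20 cells at 957 CPM, 22.4-fold (19.3 to 25.9), and NKAIN2 in 22 cells at 1090 CPM, 168-fold (140 to 200). CLEC3B, the plasminogen-binding tetranectin, was in all 23 cells at 687 CPM and stood at 886 CPM in the C1R/MXRA8/CDH2 set. Against the progenitor class the C1R/MXRA8/CDH2 set held TCF4 at 1.96-fold (1.71 to 2.25), BLNK at 1.35-fold (1.16 to 1.59), CLEC3B at 1.29-fold (1.07 to 1.56) and NKAIN2 at 0.794-fold (0.680 to 0.931). The ratios between the classes were thus under 2-fold for these genes, though the interval of TCF4 reached 2.25. Both classes stood far above the pooled other cells. Gated monocytes also held CLEC3B, with 786 UMIs in 202 of 266 cells.

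Other genes were found in 1 class and at 0 or near it in the other. HOXA9 gave 0 UMIs in the C1R/MXRA8/CDH2 set, and the interval of its ratio to the progenitor class ran from 0 to 0.0106-fold. CD34, ERG and MEIS1, of the list that cut the progenitor class, also gave 0 in the C1R/MXRA8/CDH2 set. CD8B, SPIB and PACSIN1 gave 0 in the progenitor class. The intervals of their ratios, C1R/MXRA8/CDH2 set over progenitor class, began at 57.8-, 8.35- and 7.80-fold. IRF8 was 33.2-fold higher (15.2 to 90.8) and CSF2RB 44.8-fold higher (20.5 to 122) in the C1R/MXRA8/CDH2 set, which held IRF8 in 56 of 57 cells against 5 of 23. Of the rule genes, which parted these classes by choice, CDH2 gave 0 UMIs in the 23 cells and C1R gave 2. MXRA8 gave 10 UMIs in 8 of the 23 cells, at 47.4 CPM. In the T gate MXRA8 gave 32 UMIs in 10 of 5846 cells, among them 10 and 14 UMIs in cells left out for CD3.

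Between these classes, 14 of 29 pDC genes passed the minimum and 9 were at least 2-fold higher in the C1R/MXRA8/CDH2 set, with 0 lower. IL3RA, at 0.429-fold (0.202 to 0.933), fell just short of the lower call, with a log2 ratio of −0.988 once 10 CPM was added. Over the 5143 genes that passed, 13.4% reached 2-fold on the higher side and 21.1% on the lower. Of 18 secretory genes 16 passed, with 12 higher, and of 20 sensing genes 11 passed, with 8 higher. A gene that is high in the set passes more easily here too, and SPIB, PACSIN1 and TLR9 passed with 0 UMIs in the progenitor class. These counts describe the classes and support nothing further. Per cell the pDC list held 3 to 79 UMIs (median 30) in the progenitor class and the progenitor list 3 to 37 (median 16).

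**Figure D5:**
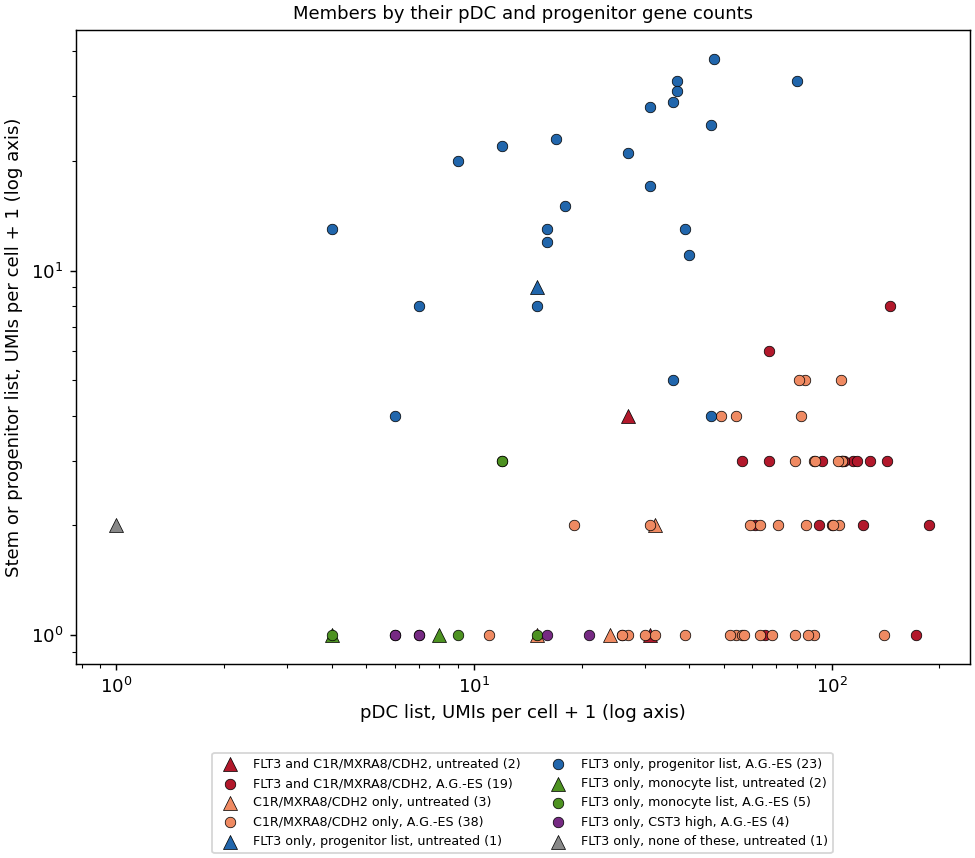
UMIs + 1 per member cell (log axes) summed over the pDC list against the stem or progenitor list, by class and library. The 23 A.G.-ES FLT3 cells with progenitor genes sit at 3 to 37 UMIs of the progenitor list, and the C1R/MXRA8/CDH2 cells with at least 10 UMIs of C1R at 10 to 186 UMIs of the pDC list.

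The 1 untreated cell of this class held 7102 UMIs, with 2 of FLT3, 1 of CD34, 5 of MEIS1, 2 of ERG, 5 of NKAIN2 and 6 of TCF4. Each of these lay within the range of the A.G.-ES cells.

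In the A.G.-ES library 4 cells of the FLT3 set were the only members with at least 30 UMIs of CST3. They held 154, 62, 32 and 116 UMIs of CST3, with 11, 3, 2 and 4 of FLT3 and 3, 1, 5 and 6 of ZBTB46. CD86 stood at 19, 3, 3 and 5 UMIs and CD74 at 134, 112, 137 and 98. Their total depths were 12420, 10962, 10348 and 8359 UMIs. All 4 thus held ZBTB46, which was found in 1 of 57 cells of the C1R/MXRA8/CDH2 set. ZBTB46 was also found in 5 of the 23 cells of the progenitor class, with 14 UMIs, and in 127 of 5846 T-gated cells. The shared cDC list of the 4 cells stood at 22215 CPM against 4677 CPM in gated monocytes. That list holds CST3, which cut the class and alone gave 8648 CPM of the sum.

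Neither cDC class was settled in those 4 cells. BATF3, a cDC1 factor, gave 7 UMIs in 3 of them, but CLEC9A and XCR1 gave 0. CLEC9A gave only 1 UMI in all kept cells of the library, so its absence here cannot decide. FCER1A, a cDC2 marker, gave 4 UMIs in 1 cell, out of 5 UMIs in all kept cells of the library. SIRPA gave 5, 0, 1 and 1 UMIs, and IRF4 stood at 143 CPM in 3 cells. AIF1, an actin-binding protein of myeloid cells, gave 82 UMIs across all 4, VCAN gave 0, and the monocyte list held 5, 1, 2 and 2 UMIs. ID2 stood at 641 CPM against 20.6 CPM in the C1R/MXRA8/CDH2 set. The untreated library held no FLT3 cell of this kind outside the C1R/MXRA8/CDH2 set, which allows a share of up to 0.0456%.

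The remaining 5 A.G.-ES cells held 2, 2, 2, 5 and 2 UMIs of FLT3 beside 42, 52, 79, 34 and 17 of VCAN, a proteoglycan of blood monocytes. The 2 untreated cells of the kind held 49 and 31 UMIs of VCAN. Gated monocytes of the A.G.-ES library held 29 UMIs of FLT3, 1 each in 29 of 266 cells (10.9%), a maximum that follows from taking cells with 2 or more as members, and B-gated cells held 0. CST3 stood at 27, 14, 2, 8 and 8 UMIs in the 5.

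As a whole, the A.G.-ES FLT3 set carried the pDC list in 38 of 51 thinned cells (74.5%, 60.4 to 85.7%), the cDC1 list in 22 (43.1%, 29.4 to 57.8%), the cDC2 list in 6 (11.8%, 4.44 to 23.9%) and the monocyte list in 5 (9.80%, 3.26 to 21.4%). In the progenitor class 17 of 23 (73.9%) carried the pDC list and 5 of 23 (21.7%) the cDC1 list. In the untreated FLT3 set the counts were 3, 2, 3 and 2 of 5 for the pDC, cDC1, cDC2 and monocyte lists. The leading genes of the FLT3 set joined both patterns, C1R, NKAIN2, CSF2RB, OGFRL1 and ESR1 standing before FLT3. Between the sets, the genes farthest toward the FLT3 cells outside the other set were VCAN at a log2 difference of −6.38, ATP8B4 at −6.17, KLRK1 at −5.86, CXCL8 at −5.62 and DGKB at −5.31. Farthest toward the C1R/MXRA8/CDH2 set were C1R at 6.83, CD8B at 5.86, DNAH7 at 5.78, CDH2 at 5.05 and GLCE at 4.87.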

How the data were processed

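The authors deposited raw UMI counts per gene and barcode, 1 matrix per library, made with the SeekOne DD 3′ kit per the labels' protocols. For the aligner, genome build and annotation, none is given in the sources used here. Values of repeated gene names were summed, which left 26761 names. Barcodes with at least 200 genes and at most 15% mitochondrial UMIs were kept, and 158 and 186 were removed. Doublets were left in. They were scored with Scrublet (scanpy 1.11.5) as an alternative.

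Cells were chosen by the count rule given above. Levels are UMIs pooled over cells per 1000000 UMIs (CPM), with exact Poisson intervals. Shares carry Clopper-Pearson intervals, and ratios exact conditional binomial intervals. A gene entered a comparison with at least 30 UMIs, and was called at 2-fold with 10 CPM added. Genes are named for being on a dendritic list, in the 25 leading genes of a set or in the 10 farthest apart each way between the sets. The tools were numpy 2.4.6, scipy 1.17.1 and pandas 2.3.3, and the counting steps were tested on simulated data. The members, the 22 marker and 10 gene lists and the class limits were chosen with earlier results of these data known, and the limits on C1R, CST3 and the lists after values were seen. Of 409 listed names, 37 were not analysed here. Gene-by-gene comparison between the libraries needed 20 cells per library and was not made. Alternatives covered thresholds, thinning, doublets and exclusions.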

Additional observations from a re-analysis of the deposited data

How the results depend on the processing

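No paired analysis was possible because each group has 1 library. Leaving out a replicate was not possible for the same reason. The comparison of genes between libraries, with its alternatives of normalization, count minimum, doublets, cell weights and threshold, was not run, since the untreated library held under 20 cells in each set. Of 104 alternative values, 80 moved within their counting interval, 24 moved further and 0 reversed. The threshold on UMIs moved the share of FLT3 cells to 0% with a higher and 0.247% with a lower threshold in the untreated library and to 0.307% and 1.09% in the A.G.-ES library. Thinning to 3000 UMIs before the rule, chosen after seeing the data as was dropping the T and B exclusion, gave 0.0151% and 0.201% for the FLT3 set and 0.860% for the A.G.-ES C1R/MXRA8/CDH2 set. These are shares of the 6609 untreated and 6974 A.G.-ES cells with at least 3000 UMIs, a smaller base than in the main result. The 0.860% was 60 of 6974 cells, beside 57 of 9452, and the CD3 and B limits were also applied to thinned counts. With scored doublets removed, the untreated C1R/MXRA8/CDH2 set was 0%. The untreated FLT3 set then kept 3 cells, of which 2 were deep enough to thin. Those 2 cells carried the pDC list in 0%, the cDC2 list in 100% and the monocyte list in 100%.

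Without thinning, the A.G.-ES FLT3 set carried the pDC list in 100%, cDC1 in 94.1%, cDC2 in 47.1% and monocyte in 25.5% of cells. The A.G.-ES C1R/MXRA8/CDH2 set carried cDC1 in 100%, cDC2 in 49.1% and monocyte in 7.02%, and the untreated one cDC1 in 100% and cDC2 in 100%. At 3 UMIs or more, cDC1 fell to 19.6% and cDC2 to 1.96% in the A.G.-ES FLT3 set and cDC1 to 42.9% in the A.G.-ES C1R/MXRA8/CDH2 set. Thinned to 1000 UMIs, the untreated C1R/MXRA8/CDH2 set carried the pDC list in 20%. The untreated list shares rest on at most 6 cells, and those of the FLT3 set with doublets removed on 2.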
